A study of Homo sapiens with 24 samples.

Results

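The mitotic cyclins, their kinase CDK1 and the small CKS subunits were followed through 4 treatments of A549, a human lung adenocarcinoma cell line. The 7 members are CCNA2, CCNB1, CCNB2, CCNF, CDK1, CKS1B and CKS2, taken by gene symbol from the 58721 gene rows of the count files, and all 7 were found and passed the filter on low counts in every comparison. Poly(A) RNA was sequenced in 24 libraries of 7 groups. The cells were transfected with 25 nM siRNA against MYBL2 (siMYBL2, 4 libraries), against FOXM1 (siFOXM1, 4 libraries) or with a scrambled siRNA (siControl, 4 libraries, the shared control of both). In a separate experiment MYBL2 and FOXM1 siRNAs were transfected together (siBoth, 3 libraries) beside their own scrambled control (siControl_Both, 3 libraries). Another experiment exposed the cells to 20 µM FDI-6 for 24 h (FDI6, 3 libraries), a compound described as an inhibitor of FOXM1 binding to DNA, beside cells without it (control_FDI6, 3 libraries). The labels call the control and compound-control cells WT. Every library is of 1 cell line, 1 siRNA product was used for each gene, and the time from transfection to harvest is not given in the sources used here. The question put to these genes was which of them responded to the loss of each transcription factor, and whether they responded alike.

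CDK1 is the kinase that drives cells from G2 into mitosis, and it is inactive until it binds a cyclin. Cyclin A2 (CCNA2) acts from S phase into early mitosis, cyclins B1 and B2 (CCNB1, CCNB2) at mitotic entry, and all of them are removed by ubiquitin-dependent degradation as mitosis proceeds. Cyclin F (CCNF) is a relative that activates no kinase and instead serves as the substrate-binding F-box subunit of an SCF ubiquitin ligase. CKS1B and CKS2 are small, closely related adaptor proteins that bind CDKs and help them phosphorylate substrates at several sites, and CKS1B is also needed by the SCF ligase with SKP2 to recognise the inhibitor p27. Transcription of such genes rises late in the cell cycle, and the DREAM and MuvB complexes with MYBL2 and FOXM1 are known to act on many of their promoters through a short element called CHR, often with CCAAT boxes nearby.

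The promoters of 3 members are printed to show the range of motifs among them. They are CKS1B and CKS2, close relatives whose values differed, and CCNA2, whose window held neither TTTGAA nor TTTAAA. A link between motifs and responses was not tested. Each window runs from 250 bases before to 50 bases after the transcription start on the gene's strand, 5′ to 3′, from RefSeq on GRCh38.p14. Capitals mark the CHR letters searched for, which are TTTGAA with TTTAAA as its variant, and the box CCAAT, on either strand. Other forms of the CHR were not searched for. On the opposite strand the CHR letters appear as TTCAAA and the box as ATTGG. The CKS1B window is chr1:154974431-154974730 (plus strand), the CKS2 window chr9:89310945-89311244 (plus) and the CCNA2 window chr4:121823834-121824133 (minus).
CKS1B: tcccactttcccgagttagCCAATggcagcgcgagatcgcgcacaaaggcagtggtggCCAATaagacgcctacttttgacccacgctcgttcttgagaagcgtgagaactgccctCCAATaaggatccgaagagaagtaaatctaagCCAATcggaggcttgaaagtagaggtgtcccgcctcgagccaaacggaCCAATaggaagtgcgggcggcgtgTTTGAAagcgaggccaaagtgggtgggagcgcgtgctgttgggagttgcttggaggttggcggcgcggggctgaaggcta
CKS2: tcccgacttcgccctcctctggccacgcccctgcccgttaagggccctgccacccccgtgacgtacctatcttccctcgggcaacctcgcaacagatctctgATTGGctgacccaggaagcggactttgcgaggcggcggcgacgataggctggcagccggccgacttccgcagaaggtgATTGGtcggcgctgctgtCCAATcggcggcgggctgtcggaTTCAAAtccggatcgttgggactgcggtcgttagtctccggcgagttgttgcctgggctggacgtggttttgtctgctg
CCNA2: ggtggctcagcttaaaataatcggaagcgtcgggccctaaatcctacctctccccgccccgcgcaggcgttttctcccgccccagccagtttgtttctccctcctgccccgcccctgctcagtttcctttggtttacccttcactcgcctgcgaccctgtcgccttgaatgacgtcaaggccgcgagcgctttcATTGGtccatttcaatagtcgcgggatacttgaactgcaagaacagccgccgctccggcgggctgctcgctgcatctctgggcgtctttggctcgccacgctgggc
The CKS1B window held TTTGAA from base -30 and 5 CCAAT boxes on the gene's strand, and the CKS2 window held the same CHR letters on the opposite strand from base -29 and 3 CCAAT boxes, so the pair did not differ in the presence of either motif. CCNB2, whose window is not printed, held the main CHR form at -29, the variant form at -193 and 4 boxes. CCNB1 held the variant at -30 and 2 boxes. CDK1 has 2 windows in the table, both with the main form. Over the 6 members whose windows were searched, a CCAAT box was found for 6, against 34.6% of all 35116 promoter windows, and a CHR form for 5, against 24.0%. The main form stood in 15.2% of all windows and the variant in 12.2%. A match of these letters is a description and not a site of binding, and a window without them, such as that of CCNA2, may hold another form of the CHR.

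Each library held between 16487394 and 30140550 read pairs assigned to genes, and the members' counts in single libraries ran from 279 to 6585. Levels are given as CPM, counts per 10 to the power of 6 assigned pairs, after TMM scaling over the 24 libraries. In the siMYBL2 libraries MYBL2 fell to 4.17% of its control level, and in siFOXM1 FOXM1 fell to 9.58%. In siBoth they fell to 4.90% and 9.66%. MYBL2 knockdown also lowered FOXM1 to 60.3% of control (log2 fold change -0.73 ± 0.14, SE, edgeR adjusted p = 0.00755), while MYBL2 stood at 96.1% of control in siFOXM1 (adjusted p = 0.913). FDI-6 lowered both transcripts, to 70.0% and 77.5% of control. Of 5 epithelial markers, KRT8 and KRT18 were high in every library (at least 1020 CPM), while KRT19 (at least 37.7 CPM), CDH1 (9.51 to 90.3 CPM) and EPCAM (1.67 to 37.5 CPM) were lower. Of the alveolar markers, NAPSA reached 3.07 CPM and NKX2-1, SFTPB and SFTPC did not exceed 0.321 CPM. The leukocyte marker PTPRC reached 0.232 CPM and CD3E was at 0, the endothelial PECAM1 and CDH5 reached 2.81 and 2.09 CPM, and of the fibroblast markers COL1A1 stood at 4.91 to 58.8 CPM and COL1A2 at 0.890 CPM or less. The part of cells of other types in the results was not tested. The siBoth and siControl_Both libraries had 7.68% to 10.9% of pairs not aligned, against at most 3.03% in the others.

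In cells that received the scrambled siRNA, the CKS subunits and cyclin B1 were the most abundant members and cyclin F the least. The values that follow are from siControl unless another group is named. Compared per length of the canonical transcript, CKS1B stood at 179 ± 6.10 CPM per kb (SD, n = 4) and CKS2 at 176 ± 1.04, followed by CCNB1 at 106 ± 7.61, CDK1 at 69.2 ± 1.90, CCNB2 at 60.7 ± 5.48, CCNA2 at 35.9 ± 4.82 and CCNF at 9.76 ± 1.04. CKS1B and CKS2 overlapped over their 4 libraries, as did CDK1 and CCNB2, and every other pair of neighbours was apart. The order depends on the length used: over the union of all annotated exons CKS1B stood at 59.6 CPM per kb, below CKS2 (176) and CCNB1 (88.5), and CCNA2, CDK1 and CCNB2 lay between 32.8 and 35.9. By canonical length CKS2 led in siMYBL2 at 175 ± 15.3 CPM per kb, and CKS1B had dropped to 63.1 ± 15.2, within the range of CCNB1 at 62.4 ± 8.45. CKS2 also led in siBoth and in siControl_Both, where it stood at 175 ± 13.3 and overlapped CKS1B at 160 ± 17.4 (SD, n = 3). In siControl_Both CCNB2 (56.3) stood above CDK1 (53.9), also with overlap. Over the union of exons CKS2 led in every group. CCNF was the lowest member in all 7 groups by either length.

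**Figure D1:**
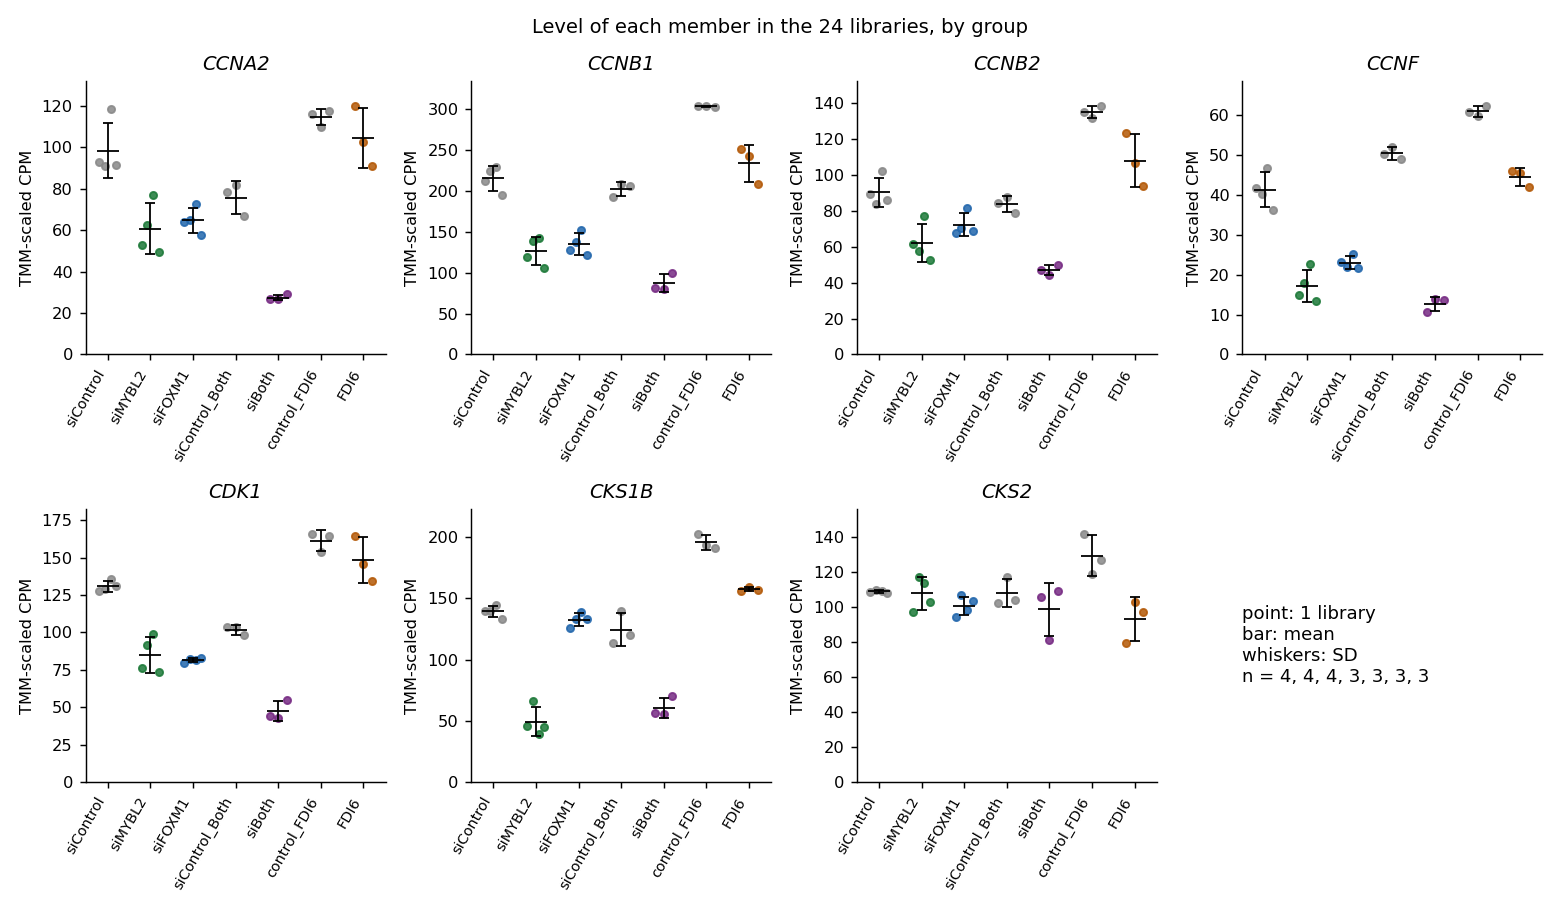
TMM-scaled CPM of each member (vertical axis, from 0) in the 7 groups (horizontal axis), with 1 point for each library and the mean with SD as bar and whiskers. CDK1 and the cyclins are lower in the 3 knockdown groups than in their controls, CKS1B is lower in siMYBL2 and siBoth but overlaps its control in siFOXM1, and CKS2 overlaps its control in siMYBL2 and siBoth.

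Targeting MYBL2 lowered 5 of the 7 members by more than 1.5-fold, CKS1B and CCNF the most, and left CKS2 near its control level. Targeting FOXM1 lowered CDK1, CCNB1, CCNA2 and CCNF, and left both CKS genes near theirs. Targeting both lowered 6 members, all but CKS2. FDI-6 lowered 5 members by less than 1.5-fold, among them CKS2. CDK1 and CCNA2 did not pass the test with FDI-6, but both passed without FDI6 replicate 1. A gene was called where the edgeR quasi-likelihood test, Benjamini-Hochberg adjusted over all genes tested, gave an adjusted p under 0.05 and the fold change exceeded 1.5. The members called lower were 5 of 7 in siMYBL2 (3.52% of all 16065 genes tested were called lower), 4 of 7 in siFOXM1 (0.591% of genes), 6 of 7 in siBoth (3.64%) and 0 of 7 in FDI6 (5.77%). By adjusted p alone the counts were 6, 4, 6 and 5 of 7, against 9.53%, 1.09%, 7.77% and 17.9% of genes. No member rose in any of the 4 comparisons. All libraries of the treated group lay below all of the control group for 6, 6, 6 and 5 members (12.3%, 4.81%, 18.8% and 24.8% of genes). The count of 0 for FDI6 comes from edgeR with the fold limit; DESeq2 also called 0, and 5 members had an unadjusted p under 0.05. The median log2 fold change over the 7 members was -0.70, -0.61, -1.11 and -0.33, against 0.01, 0.00, 0.02 and -0.01 over all genes tested. The siMYBL2 and siFOXM1 comparisons share their 4 control libraries. From the same knockdowns, together with MYBL2 or FOXM1 binding at the promoter, the study named CCNF, CCNB1, CDK1 and CCNA2 among its target genes. These were lower in the single and double knockdowns. The study also measured its targets by RT-qPCR after new knockdowns in A549 and another lung adenocarcinoma line. It reported that most were reduced when both factors were targeted. As the members were chosen with earlier results of these data known, their counts against all genes are a description and no independent support.

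**Figure D2:**
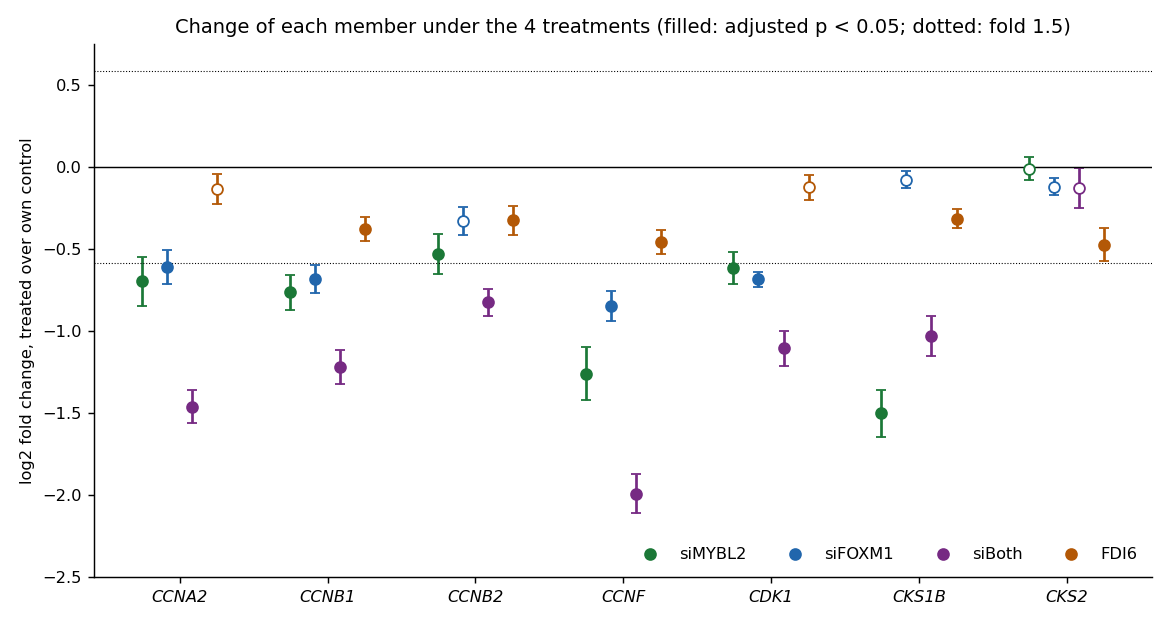
Log2 fold change of each member against its own control (vertical axis) with its SE, for the 4 treatments in colours; filled points have an adjusted p under 0.05 and dotted lines mark a fold change of 1.5. CCNF in siBoth is the lowest point at -1.99, CKS1B drops in siMYBL2 (-1.5) and siBoth (-1.03) but not in siFOXM1 (-0.08), and CKS2 lies below -0.40 only with FDI6.

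CDK1, the catalytic subunit, was read at 127, 129, 136 and 131 CPM in the siControl libraries. It stood at 76.2, 91.6, 98.9 and 73.9 CPM in siMYBL2 and at 79.4, 82.2, 81.9 and 82.9 CPM in siFOXM1. Both knockdowns lay wholly below the control, and the siFOXM1 libraries were the closer together. The level fell to 65.2% of control in siMYBL2 (log2 fold change -0.62 ± 0.10, SE, adjusted p = 0.00351, edgeR) and to 62.2% in siFOXM1 (-0.69 ± 0.05, adjusted p = 0.000274). The siMYBL2 value is close to the fold limit: without siMYBL2 replicate 1 it was -0.57 and without replicate 4 it was -0.55, both under 1.5-fold. In the combined knockdown CDK1 was read at 44.2, 42.7 and 55.0 CPM against 104, 103.5 and 98.1 in siControl_Both, with no overlap, a fall to 46.5% (-1.11 ± 0.11, adjusted p = 0.000921). With FDI-6 it was read at 165, 146 and 134 CPM against 166, 154 and 164, and these overlapped (91.7% of control, log2 fold change -0.13, adjusted p = 0.227). Without FDI6 replicate 1, CDK1 passed at -0.20 (adjusted p = 0.00289), and without FDI6 replicate 3 it was -0.06.

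CCNB1, the cyclin B that pairs with CDK1 at mitotic entry, was the member with the highest CPM, at 213, 225, 229 and 195 in siControl. It was read at 119.6, 139, 142 and 106 CPM in siMYBL2 and at 128, 137, 153 and 121 CPM in siFOXM1. No knockdown library reached the lowest control library. The falls were to 58.8% of control in siMYBL2 (log2 fold change -0.77 ± 0.11, SE, adjusted p = 0.00189, edgeR) and 62.3% in siFOXM1 (-0.68 ± 0.09, adjusted p = 0.00659). In siBoth the values were 81.1, 80.0 and 99.4 CPM against 192, 209 and 206 in siControl_Both. The groups were again apart, and the fall was to 42.9% (-1.22 ± 0.10, adjusted p = 0.000521). FDI-6 gave 251, 242 and 208 CPM against 304, 304 and 302. All 3 treated libraries were lower than the control libraries, which differed by less than 2 CPM among themselves, and the fall to 77.0% (-0.38 ± 0.07, adjusted p = 0.00173) stayed under 1.5-fold.

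CCNB2, the other B-type cyclin, had smaller falls than CCNB1 in each knockdown. Its siControl values were 89.3, 83.9, 102 and 86.0 CPM. Those in siMYBL2 were 61.3, 57.5, 77.4 and 52.9 CPM, and those in siFOXM1 were 68.0, 70.5, 81.8 and 68.8 CPM. Both sets lay below the control. The siMYBL2 fall to 69.1% of control passed the adjusted p but not the fold limit (log2 fold change -0.53 ± 0.12, SE, adjusted p = 0.0172, edgeR). Without siMYBL2 replicate 3, the library with the highest CCNB2 of its group, it passed both (-0.66), and without siMYBL2 replicate 1 it missed the adjusted p (-0.53, adjusted p = 0.0530). In siFOXM1 the level was 79.7% of control (-0.33 ± 0.08), and the test was not passed (adjusted p = 0.114), although 4 of 4 libraries were below the control of the same number. Once replicate numbers entered the fit as a block, its adjusted p was 1.23e-07 at the same fold change, still under 1.5-fold. In siBoth CCNB2 was read at 47.3, 44.4 and 50.02 CPM against 84.4, 88.0 and 79.0, a fall to 56.4% (-0.83 ± 0.08, adjusted p = 0.00113) with no overlap. FDI-6 gave 124, 107 and 93.9 CPM against 135, 132 and 139, also without overlap, a fall to 79.8% (-0.33 ± 0.09, adjusted p = 0.0130).

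CCNA2, cyclin A2, was read at 92.8, 91.1, 118 and 91.8 CPM in siControl, where replicate 3 stood well above the others. In siMYBL2 it was 53.1, 62.7, 77.2 and 49.7 CPM, and in siFOXM1 64.1, 65.1, 72.5 and 57.8 CPM. Neither knockdown overlapped the control, and replicate 3 was the highest library in each of the 3 groups. The falls were to 61.7% of control in siMYBL2 (log2 fold change -0.70 ± 0.15, SE, adjusted p = 0.0130, edgeR) and 65.6% in siFOXM1 (-0.61 ± 0.10, adjusted p = 0.0262). The siFOXM1 call was lost when siFOXM1 replicate 1, 2 or 4 or siControl replicate 1 or 2 was left out (adjusted p from 0.0612 to 0.1004), and without siControl replicate 3 the fold fell below 1.5 (-0.50). With the replicate block it stayed called at -0.61. The combined knockdown gave 26.8, 26.6 and 29.03 CPM against 78.4, 81.9 and 66.8 in siControl_Both. Those libraries were far apart, and the fall to 36.3% (-1.46 ± 0.10, adjusted p = 0.000257) was exceeded by CCNF alone in siBoth. FDI-6 gave 120.1, 103 and 91.1 CPM against 116, 110.1 and 118, which overlapped (91.0% of control, log2 fold change -0.14, adjusted p = 0.259). Without FDI6 replicate 1, CCNA2 passed at -0.24 (adjusted p = 0.000968), and without FDI6 replicate 3 it was -0.05. Of the exon bases of CCNA2, 9.24% overlap EXOSC9 on the opposite strand, and the strand setting of the counting is not given in the sources used here.

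CCNF, the F-box relative of the cyclins, had the lowest level of the members and the largest fall in siFOXM1 and in siBoth. Its siControl values were 41.8, 40.4, 46.7 and 36.1 CPM. They were 14.9, 17.8, 22.7 and 13.4 CPM in siMYBL2 and 23.1, 22.0, 25.3 and 21.7 CPM in siFOXM1. Both knockdowns lay wholly below their shared control, and the falls were to 41.8% (log2 fold change -1.26 ± 0.16, SE, adjusted p = 0.00138, edgeR) and 55.6% (-0.85 ± 0.09, adjusted p = 0.00284). In siBoth CCNF was read at 10.6, 13.8 and 13.6 CPM against 50.3, 52.1 and 49.0, a fall to 25.1% (-1.99 ± 0.12, adjusted p = 0.000153). FDI-6 gave 46.1, 45.5 and 42.0 CPM against 60.8, 59.7 and 62.4. These were apart as well, at 72.9% of control (-0.46 ± 0.07, adjusted p = 0.000640). Of the CCNF exon bases, 11.8% overlap genes on the opposite strand.

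CKS1B had the largest difference of the members between siMYBL2 and siFOXM1. It was read at 139.5, 139.9, 145 and 133 CPM in siControl. In siMYBL2 it was 46.0, 66.4, 39.2 and 45.1 CPM, and in siFOXM1 125.5, 133, 139 and 133.5 CPM. Every siMYBL2 library was far below the lowest control library, while the siFOXM1 libraries overlapped the control. The fall was to 35.3% of control in siMYBL2 (log2 fold change -1.5 ± 0.14, SE, adjusted p = 0.000337, edgeR), the largest of the members in that comparison, against 94.8% in siFOXM1 (-0.08 ± 0.05, adjusted p = 0.634). In siBoth CKS1B was read at 56.8, 55.4 and 70.3 CPM against 114, 139.6 and 119.9 in siControl_Both. The groups were apart, with a fall to 48.9% (-1.03 ± 0.12, adjusted p = 0.00205). FDI-6 gave 157, 159.5 and 157 CPM against 203, 194 and 191, also apart, at 80.4% of control (-0.31 ± 0.06, adjusted p = 0.00172). The 7 pseudogene rows of CKS1B in the annotation together held 0.429% as many counts as the gene.

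CKS2, the close relative of CKS1B, behaved differently in the same libraries. In siControl it was read at 109, 109, 109 and 108 CPM. It was 97.1, 117, 114 and 103 CPM in siMYBL2, on both sides of the control, and 94.4, 107, 97.9 and 103 CPM in siFOXM1. The siFOXM1 libraries were all just below the control, but the difference did not pass (92.0% of control, log2 fold change -0.12 ± 0.05, SE, adjusted p = 0.371, edgeR). With the replicate block the same value had an adjusted p of 0.0122. In siMYBL2 the level was 99.2% of control (-0.01 ± 0.07, adjusted p = 0.932). The siBoth libraries were at 106, 81.2 and 109 CPM against 102, 117 and 104, overlapping, at 91.6% (-0.13 ± 0.12, adjusted p = 0.530). FDI-6 was the treatment in which CKS2 passed the test: 79.1, 103 and 96.8 CPM against 142, 118.7 and 127, with no overlap, a fall to 71.9% (-0.48 ± 0.10, adjusted p = 0.00333).

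Whether the single knockdowns differed from each other was tested directly, in 1 edgeR fit of all 24 libraries in which the controls cancel. CKS1B was lower in siMYBL2 than in siFOXM1 by 1.43 ± 0.11 on the log2 scale (SE, a difference of -1.43, adjusted p = 4.55e-09), and CCNF by 0.42 ± 0.12 (difference -0.42, adjusted p = 0.0120). These 2 of 7 members passed, against 25.3% of all 17752 genes in either direction and 13.0% lower in siMYBL2. Without siMYBL2 replicate 1 or 4 CCNF no longer passed (adjusted p = 0.0510 and 0.0516), and without siMYBL2 replicate 3 CCNB2 passed as well (difference -0.34). With the replicate block CCNB2 passed at -0.22 ± 0.07 (adjusted p = 0.00816). CDK1, CCNB1, CCNA2 and CKS2 differed by -0.10 to 0.10, with adjusted p from 0.473 to 0.663.

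The combined knockdown was set against each single one, each effect taken relative to its own scrambled control. Against siFOXM1 the fall in siBoth was larger for CCNF (difference of log2 fold changes -1.15 ± 0.18, SE, adjusted p = 0.000369, edgeR), CKS1B (-0.96 ± 0.17, adjusted p = 0.00109), CCNA2 (-0.86 ± 0.18, adjusted p = 0.00646) and CCNB1 (-0.54 ± 0.14, adjusted p = 0.0291). These were 4 of 7 members, against 5.45% of genes in either direction and 3.77% in this one. The CCNB1 difference did not pass when any of 7 libraries was left out (siFOXM1 replicate 3, siControl replicate 1 or 4, siBoth replicate 1 or 2, siControl_Both replicate 2 or 3, adjusted p from 0.0512 to 0.128). CCNB2 (-0.51 ± 0.15) and CDK1 (-0.43 ± 0.13) missed the threshold at adjusted p = 0.0571 and 0.0643, and passed with the replicate block (0.000856 and 0.00655) and with DESeq2 (0.0386 and 0.0423). CCNB2 also passed without a filter (0.0398). Each also passed without 1 library, CCNB2 without siControl replicate 3 and CDK1 without siBoth replicate 3. CKS2 showed no difference that could be resolved (-0.01 ± 0.14).

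Against siMYBL2, 0 of 7 members passed in edgeR without the block (0.304% of genes passed), although 5 had an unadjusted p under 0.05 (8.78% of genes) and DESeq2 passed 3, CCNA2, CCNF and CDK1. Once replicate numbers entered as a block, 5 passed: CCNA2 (-0.75 ± 0.11, SE, adjusted p = 0.000341), CCNF (-0.73 ± 0.12, adjusted p = 0.00105), CDK1 (-0.49 ± 0.11, adjusted p = 0.00890) and CCNB1 (-0.45 ± 0.08, adjusted p = 0.00217) fell further in siBoth, and CKS1B fell less (0.48 ± 0.14, adjusted p = 0.0443). The same numbers marked libraries that deviated together in these experiments. Leaving out 1 library without the block let CCNA2 and CCNF pass without siMYBL2 replicate 4, CCNA2 without siControl replicate 3, CKS1B without siMYBL2 replicate 2 and CDK1 without siBoth replicate 3.

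On the log2 scale the effect of siBoth was compared with the sum of the effects of siMYBL2 and siFOXM1. For CCNB2 the sum was -0.86 and siBoth gave -0.83, and for CKS2 the values were -0.13 and -0.13. CCNF had a sum of -2.11 against -1.99, and CCNA2 -1.31 against -1.46. CCNB1 (-1.45 against -1.22) and CDK1 (-1.30 against -1.11) lay a little above the sum. CKS1B lay furthest from it, at -1.58 against -1.03. In the edgeR fit of all 24 libraries its departure was 0.54 ± 0.23 (SE, unadjusted p = 0.0272). None of the 7 departures passed the adjusted threshold in edgeR or DESeq2 (adjusted p = 1 in edgeR), 1 had an unadjusted p under 0.05 (3.42% of genes), and 0% of all genes passed. The SE of 0.18 to 0.25 on these departures means that a moderate departure could not be resolved.

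**Figure D3:**
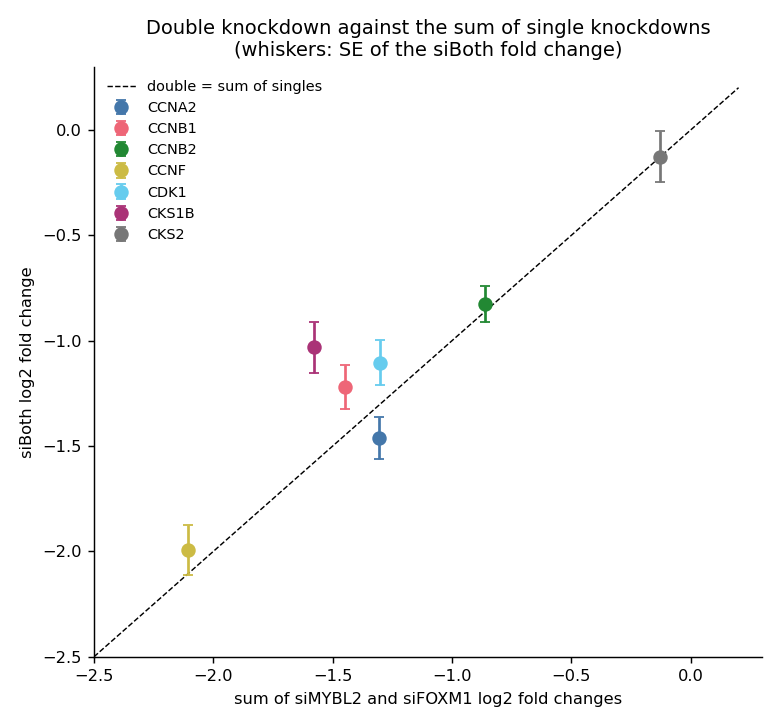
Log2 fold change of each member in siBoth with its SE (vertical axis) against the sum of its log2 fold changes in siMYBL2 and siFOXM1 (horizontal axis), with a dashed line where both are equal. CCNB2, CKS2 and CCNF lie within 0.12 of the line. CKS1B lies furthest from it, above the line, with a sum of -1.58 and a siBoth value of -1.03.

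The effect of FDI-6 was compared with that of FOXM1 siRNA in the same way, although agent and delivery differ and the time from transfection to harvest is not known. CDK1 fell less with FDI-6 (difference 0.56 ± 0.13, SE, adjusted p = 0.00500, edgeR), and this was the 1 of 7 members that passed, against 20.0% of genes. Against its own control, CDK1 did not pass with FDI-6 (log2 fold change -0.13, edgeR adjusted p = 0.227). CCNA2 (0.47 ± 0.18), CCNF (0.39 ± 0.18), CCNB1 (0.30 ± 0.14) and CKS2 (-0.36 ± 0.14) had adjusted p from 0.0709 to 0.145, and all 4 passed with the replicate block (adjusted p from 0.00209 to 0.0327). In that fit CKS2 fell more with FDI-6, and CDK1 and the 3 cyclins fell less. Leaving out FDI6 replicate 3 let CCNA2 pass, and leaving out FDI6 replicate 2 or scaling by the upper quartile let CKS2 pass. For CCNB2 the effects were equal within error (0.00 ± 0.15), and CKS1B gave -0.24 ± 0.17 (adjusted p = 0.339). The replicate numbers did not mark shared deviations in the FDI-6 experiment, where libraries of the same number correlated at -0.286 to 0.159.

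The members were also compared with each other inside each library, as the log2 ratio of their counts, which does not depend on the scaling of the libraries. CKS1B over CKS2 was 0.36, 0.36, 0.41 and 0.31 in siControl. It was -1.08, -0.82, -1.54 and -1.19 in siMYBL2, so the order of the pair by counts turned in 4 of 4 libraries. In siFOXM1 it was 0.41, 0.32, 0.51 and 0.38, which overlapped the control. The change was -1.51 in siMYBL2 (exact permutation test, two-sided, p = 0.0286, the smallest that 4 against 4 libraries allow, adjusted over the 21 pairs p = 0.0429) and 0.04 in siFOXM1 (p = 0.371). In siBoth the ratio was -0.90, -0.55 and -0.63 against 0.16, 0.25 and 0.20, a change of -0.90 without overlap.

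Among the cyclins and CDK1, several ratios did not pass the test in the single knockdowns. CCNB1 over CDK1 was 0.72 ± 0.10 (SD, n = 4) in siControl and 0.72 ± 0.14 in siFOXM1, a change of 0.00 (exact permutation test, p = 1.00), and 0.57 ± 0.06 in siMYBL2 (p = 0.0857). CCNA2 over CDK1 changed by -0.08 in siMYBL2 and 0.08 in siFOXM1 (exact p = 0.429 and 0.457), and CCNA2 over CCNB1 by 0.06 and 0.08 (exact p = 0.543 and 0.314). CCNF fell against CDK1 by 0.66 in siMYBL2 (a change of -0.66, exact permutation p = 0.0286), from ratios of -1.61, -1.68, -1.54 and -1.86 to -2.35, -2.36, -2.13 and -2.46, without overlap. In siFOXM1 that change was -0.16 (exact permutation p = 0.114). These tests do not use the replicate numbers. By number, CCNA2 over CDK1 and CCNB1 over CDK1 were each lower in siMYBL2 in 4 of 4 pairs (-0.16 to -0.04 and -0.23 to -0.06), as was CCNF over CDK1 in siFOXM1 (-0.23 to -0.08). A paired exact test of 4 pairs cannot go below p = 0.125, so these could not be tested that way. CCNB2 rose against CDK1 in siFOXM1 (0.36, exact permutation p = 0.0286) and its change in siMYBL2 was 0.08 (p = 0.400). In all, 14 of the 21 pairs reached the smallest p in siMYBL2 and 14 in siFOXM1, among them CDK1 over CKS1B in siFOXM1 (-0.61), each with an exact adjusted p of 0.0429. In those 14 and 14 pairs the groups did not overlap, as in 21.8% and 8.01% of all pairs of genes tested. With 3 against 3 libraries the smallest possible p is 0.1, so 0 pairs could pass in siBoth or FDI6, where 17 and 10 of the 21 pairs did not overlap, against 32.8% and 47.5% of all gene pairs. The FDI6 count is close to that background. The widest of these in siBoth was CCNF over CKS2 (-1.86).

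**Figure D4:**
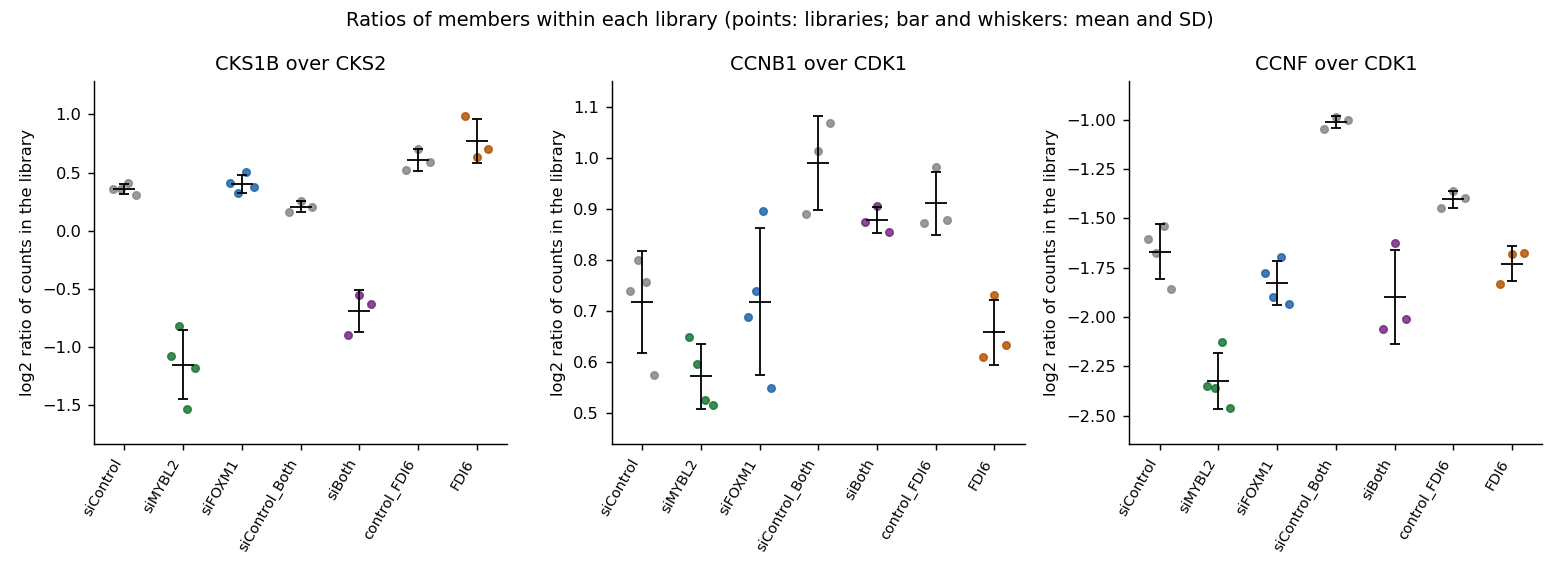
Log2 ratio of the counts of a pair of members within each library (vertical axis, not from 0) by group (horizontal axis), with 1 point for each library and mean and SD as bar and whiskers. CKS1B over CKS2 turns negative in siMYBL2 and siBoth, CCNB1 over CDK1 overlaps between siFOXM1 and siControl, and CCNF over CDK1 is lower in siMYBL2, siBoth and FDI6 than in their controls.

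As a description over the 24 libraries, each set relative to the mean of its own control group, CDK1 and the 4 cyclins followed each other closely, with Pearson correlations between 0.889 and 0.974. CKS1B followed them less (0.635 to 0.762), and CKS2 hardly (0.0830 to 0.233), with 0.0506 between CKS1B and CKS2. These points share treatments, controls and library depth, so no p is given. The genes most like the mean of the 7 members, of 11057 ranked, were KIF2C (0.981), a microtubule-depolymerising kinesin, CENPA (0.963), the centromeric histone, NCAPG2 (0.959), a condensin II subunit, GTSE1 (0.956) and KPNA2 (0.956), an importin. KIF2C gave log2 fold changes of -0.70, -0.51, -0.97 and -0.39 in the 4 comparisons.

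Around the members, 26 regulators of CDK1 and its cyclins were tested. In siMYBL2, 7 of 26 were called lower and 0 higher (median log2 fold change -0.20, against 0.01 over all genes). Those with the lowest p were CDKN3, a phosphatase that acts on CDKs (-1.03 ± 0.09, SE, adjusted p = 0.000233, edgeR), UBE2C, the ubiquitin-conjugating enzyme of the anaphase-promoting complex (-1.23 ± 0.13, adjusted p = 0.000520), CDC25B, a phosphatase that activates CDK1 (-0.84 ± 0.10, adjusted p = 0.000946), and GTSE1 (-0.89 ± 0.12, adjusted p = 0.00187). In siFOXM1, 1 was called lower, CDKN3 (-1.52 ± 0.07, adjusted p = 1.87e-05), and 1 higher, WEE1, the kinase that inhibits CDK1 (0.67 ± 0.11, adjusted p = 0.0236), with a median of -0.03. WEE1 was also higher by adjusted p, but under 1.5-fold, in siMYBL2 (0.43 ± 0.12, edgeR adjusted p = 0.0320) and siBoth (0.38 ± 0.09, adjusted p = 0.0319). In siBoth, 6 were called lower, led by CDKN3 (-2.17 ± 0.16), UBE2C (-1.25 ± 0.10), PLK1 (-0.78 ± 0.09) and GTSE1 (-1.32 ± 0.15), and 1 higher, CDKN1A, which encodes the inhibitor p21 (0.74 ± 0.19, adjusted p = 0.0373), with a median of -0.21. With FDI-6, 0 of 26 were called at 1.5-fold, 7 were lower and 2 higher by adjusted p alone, and the median was -0.11. Of all genes tested, 17.9% were lower and 3200 of 15240 higher with FDI-6 by adjusted p alone. The shares of all genes called lower were 3.52% in siMYBL2, 0.591% in siFOXM1, 3.64% in siBoth and 5.77% with FDI-6. Those called higher were, in the same order, 704 of 16065, 12 of 15892, 443 of 15812 and 1219 of 15240.

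Of the nearest relatives outside the members, CDK2 was expressed in every library (22.3 to 52.5 CPM), CCNB3 reached 2.18 CPM, CDK3 1.01 CPM and CCNA1 0.0846 CPM, and none was called in any comparison. Lists of cell cycle genes were counted in the same way. Of 50 genes of a G2/M list without the members, 15, 4, 27 and 4 were called lower in siMYBL2, siFOXM1, siBoth and FDI6 and 0 higher, with medians of -0.41, -0.13, -0.62 and -0.12, against 3.52%, 0.591%, 3.64% and 5.77% of all genes. By adjusted p alone, 20 of the 50 were lower and 5 higher with FDI6, against 17.9% of all genes lower and 3200 of 15240 higher. Of 42 tested S phase genes, 7, 1, 6 and 0 were called lower, with medians of -0.33, -0.11, -0.35 and -0.06, and 1 was called higher with FDI6. In these bulk libraries, fewer cells in G2 and M and less RNA of these genes per cell cannot be told apart, and the part of the phase distribution in the members' changes was not tested.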

How the data were processed

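Gene expression was measured by paired-end poly(A) RNA-seq of A549 cells. The authors deposited, for each of the 24 libraries, raw read-pair counts per gene. Per the labels, these counts come from Trim Galore, STAR and HTSeq on hg38, with versions and the strand setting not given in the sources used here. Rows that name no gene were left out of library sizes. A table of gene names gave symbols for 58207 of the 58721 gene rows. Lengths and overlaps came from GENCODE V44. The 7 members, the lists and the alternatives were chosen with earlier results of these data known.

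Each treatment was compared with its own control with edgeR 4.0.16 (R 4.3.3) after TMM scaling and filterByExpr. Its quasi-likelihood p was adjusted by Benjamini-Hochberg over all genes tested. Calling a gene took an adjusted p below 0.05 together with more than 1.5-fold change. Differences between treatment effects were contrasts in 1 fit of the 24 libraries in 7 groups, with an adjusted p under 0.05. Each SE was derived from the log2 fold change and its F statistic (size over root F). Ratios of members within a library (0.5 added to each count) were compared with the exact permutation test. The script was tested on simulated data. Named genes were the 7 members, both targeted genes, up to 4 called regulators in each comparison and the 5 genes most like the members (mean CPM of at least 5, 0.5 added before the log2).

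The replicate numbers come from the labels. Libraries of the same number deviated together in siMYBL2 (correlations 0.570 to 0.874), siFOXM1 (0.537 to 0.905) and siBoth (0.552 to 0.687) with their controls, so the number was also fitted as a block. In FDI6 they did not (-0.286 to 0.159). Within groups, library pairs differed by 3.57 to 62.8 chi-square units per gene, beyond sampling noise. The study describes the replicates as biological. Results were recomputed with DESeq2 1.42.0, with RLE or upper-quartile scaling, with other filters, with the block and without each library in turn. Phase lists came from Seurat 5.3.0, promoters from RefSeq (GRCh38.p14), of which 1 member's window is not reported here. Plots used matplotlib 3.10.9.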

Additional observations from a re-analysis of the deposited data

Results flagged for a closer look

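In the group of 4 siControl libraries, CCNA2 in replicate 3 (118 CPM) stood apart from the other 3 libraries, which lay between 91.1 and 92.8 CPM. It was the only such library among 21 tests of a member in a group of 4, a number at which chance alone gives about 1 (1 in 20 groups). Replicate 3 was also the highest library for CCNA2 in siMYBL2 (77.2 CPM) and siFOXM1 (72.5 CPM).

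The treatments differed from each other in 7 contrasts of single members. These were 2 of 7 members for siMYBL2 against siFOXM1, 4 of 7 for siBoth against siFOXM1 and 1 of 7 for FDI6 against siFOXM1. Of all genes, 25.3%, 5.45% and 20.0% passed these contrasts, so the counts of 2 and 1 are near that background. No member passed for siBoth against siMYBL2 in this fit, but 5 passed with the replicate block and 3 with DESeq2. None passed against the sum of single effects. CKS1B fell by 1.43 more in siMYBL2 than in siFOXM1 on the log2 scale (difference -1.43, edgeR adjusted p = 4.55e-09), lower in 4 of 4 libraries. CCNF differed in the same direction (-0.42, adjusted p = 0.0120), but not without siMYBL2 replicate 1 or 4 (adjusted p = 0.0510 and 0.0516). The combined knockdown exceeded the siFOXM1 effect for CCNF (-1.15), CKS1B (-0.96), CCNA2 (-0.86) and CCNB1 (-0.54). The CCNB1 difference did not pass when any of 7 libraries was left out (edgeR adjusted p from 0.0512 to 0.128). For CDK1 the effect of FDI-6, which overlapped its control, differed from that of FOXM1 siRNA (0.56, edgeR adjusted p = 0.00500).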

How the results depend on the processing

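The counts of members called in siMYBL2, siFOXM1 and siBoth stayed within 1.5 times of 5, 4 and 6 under RLE and upper-quartile scaling, DESeq2, both other filters, the replicate block and 1 fit of all 24 libraries. Leaving out each library in turn gave 4 to 6, 3 to 4 and 6 to 6 members, and 0 to 0 with FDI6. With no minimum fold, FDI6 had 5 members in place of 0. Against siMYBL2, siBoth had 0 members that differed, 2 without a filter, 3 with DESeq2, 5 with the replicate block and 0 to 2 with a library left out. FDI6 against siFOXM1 had 1, 2 with upper-quartile scaling, 5 with the replicate block and 1 to 2 with a library left out. siMYBL2 against siFOXM1 had 2, and 1 to 3 with a library left out. The 14 member pairs in siMYBL2 and in siFOXM1 were the same number with 5 counts added. The cause of these shifts was not tested.

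Values near 0 changed sign. CKS2 in siMYBL2 was 0.0396 with upper-quartile scaling and -0.0614 to 0.0308 with a library left out. In siBoth minus siFOXM1 CKS2 was 0.0534 with upper-quartile scaling, 0.0036 with at least 10 counts in every library, and -0.0912 to 0.118 with a library left out, and in siBoth minus siMYBL2 -0.191 to 0.0170. Its departure from the sum was 0.0019 with RLE, 0.011 with upper-quartile scaling, 0.0049 without a filter, 0.0015 with at least 10 counts, 0.0019 with DESeq2 and -0.0764 to 0.147 with a library left out. CCNB2 in FDI6 minus siFOXM1 was 0.0032 with RLE and with DESeq2 and -0.107 to 0.107 with a library left out. The departures of CCNB2 and CCNF ran from -0.0973 to 0.153 and from -0.0207 to 0.271. CDK1 in siMYBL2 minus siFOXM1 ran from -0.0182 to 0.124, and in siMYBL2 its fold change was -0.57 with upper-quartile scaling, under 1.5-fold. CCNB1 in siBoth minus siFOXM1 missed the threshold with upper-quartile scaling (adjusted p = 0.0694).

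The number of all genes called rose with the replicate block from 1269 to 1991 in siMYBL2, from 106 to 401 in siFOXM1 and from 1019 to 1849 in siBoth (1545 without a filter), and in the contrasts from 4492 to 7459, 54 to 1168 (181 with DESeq2), 968 to 3635, 3542 to 6698 and 0 to 77, in the order of the report. With a library left out the lowest were 56 in siFOXM1, 587 in siBoth, 26 in siBoth minus siMYBL2 and 536 in siBoth minus siFOXM1, the last 3 without siBoth replicate 2. Apart from the results named here and in the report, the block changed no other call of a member. With 3 libraries a group, siBoth and FDI6 had fewer replicates than the single knockdowns, and FDI6 the fewest read pairs.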

Other observations

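The 3 control groups differed in their level of the members, which is a comparison between experiments and was not tested. CDK1 stood at 131 ± 3.58 CPM (SD, n = 4) in siControl, 102 ± 3.23 (n = 3) in siControl_Both and 161 ± 6.72 (n = 3) in control_FDI6. CKS1B stood at 139.5 ± 4.75, 124 ± 13.6 and 196 ± 6.35 CPM, and CCNB1 at 215 ± 15.4, 202 ± 8.74 and 303 ± 0.873 CPM. Each of the 7 members had its highest control mean in control_FDI6. The spread among control libraries differed as well, with a coefficient of variation of 0.288% for CCNB1 in control_FDI6 and 13.5% for CCNA2 in siControl.

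Within siMYBL2 the members did not rank the libraries alike. Replicate 3 had the highest CDK1 (98.9 CPM), CCNB1 (142 CPM), CCNB2, CCNA2 and CCNF of the group, and the lowest CKS1B (39.2 CPM). In siControl, replicate 3 was likewise the highest library for CDK1 and these cyclins. Within siMYBL2, replicate 2, with the highest remaining MYBL2 (8.74 CPM), had the highest CKS1B (66.4 CPM). The other libraries did not follow that order: replicate 3 had the next highest MYBL2 (7.02 CPM), and replicate 4 had the lowest (4.60 CPM) with CKS1B at 45.1 CPM. A link between these levels was not tested.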
